A study of Mus musculus with 8 samples.

Results

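*Bglap3*, *Epb41l3*, *Bex1*, *Armcx2*, *Lhfp* and *Chst1* are 6 of the 27998 genes in a single-cell RNA sequencing data set of the mouse mammary epithelium. They were chosen as genes whose level after a completed pregnancy was lower in luminal progenitors and higher in differentiated hormone-sensing cells than before pregnancy. The values that chose them were UMI counts summed per mouse and cluster, with the luminal progenitors of cluster C7 set against those of C6 and the hormone-sensing cells of C3 against those of C4. Those contrasts are therefore given as a description with no test. *Armcx2* did not have the pattern, since it was lower after pregnancy in both lineages, and it is reported with the others because it is on the list.

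Female C57BL/6N mice were sampled at 4 stages with 2 mice each. NP mice were nulliparous and 8 weeks old, G mice were pregnant at gestation day 14.5, L mice were nursing at lactation day 6, and PI mice were taken 11 days after their pups had weaned naturally. EpCAM-positive cells free of CD31, CD45 and Ter119 were sorted, and each mouse gave 1 droplet library, which counts the 3′ ends of transcripts as UMIs (molecules tagged before amplification). The PI mice had gone through a pregnancy, a lactation and the regression of the gland, and their age is not given in the sources used here, so that parity, age and the recent regression cannot be told apart. By the study's vaginal smears both NP mice and PI mouse 2 were in oestrus and PI mouse 1 was in dioestrus. The authors' clusters C1 to C15 held 23183 cells, and library totals ran from 13785920 to 35711533 UMIs with medians of 3770 to 9624 UMIs per cell. Levels are in CPM, a gene's UMIs per 1000000 UMIs of the sum, and are given for mouse 1 and then mouse 2.

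The luminal layer of the gland holds progenitors, which carry Kit and Aldh1a3, and hormone-sensing cells, which carry the receptors for oestrogen, progesterone and prolactin and pass these signals on to their neighbours. During pregnancy progenitors give rise to alveolar cells that make milk, and after weaning most alveolar cells die, while ducts embedded in fat remain. The basal layer around them contracts to move milk. The 6 genes belong to unrelated families. *Epb41l3* encodes a band 4.1 protein that ties membrane proteins to the spectrin and actin skeleton, *Chst1* a Golgi enzyme that adds sulfate to carbohydrate chains, and *Lhfp* a tetraspan membrane protein. *Bex1* encodes a small adaptor protein known from the nervous system, *Armcx2* a membrane-anchored armadillo repeat protein, and *Bglap3* a relative of osteocalcin, the bone matrix protein.

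The split of the clusters into luminal progenitors and hormone-sensing cells was borne out by their markers. The luminal progenitor genes *Aldh1a3*, *Kit*, *Cd14* and *Elf5* summed to 2195–2444 CPM in the progenitors of C6 and 1064–1502 CPM in those of C7, against 35.0–81.5 CPM in C4 of NP mice and C3 of PI mice. Within this sum *Aldh1a3* was 2035 and 1759 CPM in C6 and 396 and 287 CPM in C7. *Kit* was also lower in C7 (42.5 and 55.5 CPM, C6 63.7 and 78.8). *Cd14* was higher in C7 (885 and 572 CPM, C6 292 and 280), as was *Elf5* (179 and 150 CPM, C6 54.0 and 76.7). In alveolar cells the sum was 735–811 CPM in C8, 907–1023 in C9, 977–1090 in C10 and 1850–2128 in C11. It therefore does not set C7 apart from alveolar cells. The hormone-sensing genes *Esr1*, *Pgr*, *Prlr*, *Cited1* and *S100a6* summed to 9532–11013 CPM in C4 and 11442–12547 CPM in C3. In C6 the same sum was 4168–4275 CPM and in C7 it was 1141–1363 CPM, of which *S100a6* alone made 4052–4165 and 1021–1259 CPM. Milk protein genes summed to 770–1445 CPM in C6 but 13656–14679 CPM in C7. The sum of 8 hormone response genes such as *Areg* and *Wnt4* was 3682.5–3867 CPM in C4 and 1319–2052 CPM in C3. The part of these shifts in the values below was not tested.

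By gene ID in the GRCm38 annotation, *Bglap3* (ENSMUSG00000074489) lies on the minus strand at chr3:88368616-88372743 and *Lhfp* (ENSMUSG00000048332) on the plus strand at chr3:53041528-53261679. *Epb41l3* (ENSMUSG00000024044) lies on the plus strand at chr17:69075683-69289989 and *Chst1* (ENSMUSG00000027221) on the plus strand at chr2:92599707-92615250. *Armcx2* (ENSMUSG00000033436) at chrX:134804145-134809221 and *Bex1* (ENSMUSG00000050071) at chrX:136213972-136215513 lie on the minus strand of the X chromosome, 1.40 Mb apart. *Bex1* overlaps *Tceal7* on the other strand, and *Epb41l3* and *Lhfp* overlap 1 and 7 gene models of the antisense or unclassified kind. How the counting treated strand is not given in the sources used here, so reads of such pairs may be shared.

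The start regions of 4 genes are shown: *Bglap3* and *Epb41l3*, whose changes lay farthest apart between the lineages, and the X-linked *Bex1* and *Armcx2*, of which the second is the exception. Each run is 300 bases from RefSeq (GRCm38.p6), 250 before and 50 after the start, read 5′ to 3′ on the gene's strand. Capitals mark every match, on either strand, to AGGTCA (the half-site of oestrogen and related nuclear receptors), to TTCNNNGAA (the GAS element of STAT factors), to the GC box GGGCGG and to the CCAAT box. The TATA box, spelled TATAAA, and the E-box of basic helix-loop-helix factors, spelled CACGTG, were searched in the same way. No matches shared bases.
Bglap3, first of 3 listed starts, chr3:88372692-88372991, minus strand: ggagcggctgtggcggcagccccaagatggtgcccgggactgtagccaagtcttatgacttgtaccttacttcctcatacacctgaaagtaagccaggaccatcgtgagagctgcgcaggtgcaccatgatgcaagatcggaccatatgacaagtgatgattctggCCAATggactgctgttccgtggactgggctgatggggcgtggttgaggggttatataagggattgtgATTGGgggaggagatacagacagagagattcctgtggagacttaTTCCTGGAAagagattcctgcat
Epb41l3, first of 3 listed starts, chr17:69075427-69075726, plus strand: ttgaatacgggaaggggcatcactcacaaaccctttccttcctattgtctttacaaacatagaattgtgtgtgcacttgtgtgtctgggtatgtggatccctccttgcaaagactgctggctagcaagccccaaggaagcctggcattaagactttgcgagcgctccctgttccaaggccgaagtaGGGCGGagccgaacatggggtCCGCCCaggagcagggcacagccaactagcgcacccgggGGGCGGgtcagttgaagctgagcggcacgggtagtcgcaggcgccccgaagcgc
Bex1, chrX:136215464-136215763, minus strand: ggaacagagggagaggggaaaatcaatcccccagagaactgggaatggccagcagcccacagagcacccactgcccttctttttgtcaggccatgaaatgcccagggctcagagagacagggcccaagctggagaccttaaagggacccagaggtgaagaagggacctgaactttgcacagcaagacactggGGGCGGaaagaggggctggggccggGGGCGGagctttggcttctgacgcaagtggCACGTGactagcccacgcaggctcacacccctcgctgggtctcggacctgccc
Armcx2, chrX:134809172-134809471, minus strand: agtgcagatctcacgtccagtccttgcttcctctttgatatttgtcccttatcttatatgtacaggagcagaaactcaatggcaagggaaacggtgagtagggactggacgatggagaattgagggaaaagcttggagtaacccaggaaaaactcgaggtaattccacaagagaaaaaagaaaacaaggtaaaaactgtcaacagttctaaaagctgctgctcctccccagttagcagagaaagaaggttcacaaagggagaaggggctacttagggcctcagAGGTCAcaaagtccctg

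The 4 windows did not share a motif set. *Bglap3* held 2 CCAAT matches and 1 GAS match, *Epb41l3* held 3 GC boxes, *Bex1* held 2 GC boxes and 1 E-box, and *Armcx2* held 1 nuclear receptor half-site. Of 32851 mouse promoter windows of this length, 37.4% held CCAAT, 8.30% the GAS element, 35.7% the GC box, 7.15% the E-box and 16.3% the half-site. *Lhfp* had 31 CpG dinucleotides in its window, more than 89.4% of windows, and *Chst1* had 1, where the median window had 7. A match is a run of letters and no binding was measured.

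In luminal progenitors all 6 genes were lower in PI than in NP mice, and no pair of groups overlapped. Of all 10744 genes fitted there, 27.5% passed the test in either direction and 13.3% were lower and passed it, and since the genes were picked on this contrast nothing is read from their own count. Their median log2 fold change was −2.48, beside −0.01 over all genes.

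*Armcx2* had its highest level of any cluster in nulliparous progenitors. It stood at 155 and 127 CPM in C6 and at 11.6 and 16.6 CPM in C7, a log2 fold change of −3.23 ± 0.18 (SE, n = 2 mice per group). *Epb41l3* stood at 13.3 and 9.12 CPM in C6 and at 1.08 and 0.879 CPM in C7 (−3.42 ± 0.39). Its C7 values rest on 8 and 7 UMIs in sums of 7393607 and 7967835.

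*Bex1* stood at 27.2 and 23.2 CPM in C6 and 3.38 and 3.89 CPM in C7 (log2 fold change −2.70 ± 0.24). *Lhfp* stood at 43.5 and 49.3 CPM in C6 and 6.76 and 11.2 CPM in C7 (−2.27 ± 0.23). *Chst1* stood at 29.9 and 20.7 CPM in C6 and 5.68 and 5.65 CPM in C7 (−2.08 ± 0.24). For each of these genes both NP mice lay above both PI mice. *Bglap3* had the smallest change of the list, from 100.5 and 112 CPM in C6 to 38.0 and 34.0 CPM in C7 (−1.47 ± 0.14). A further 22 cells of PI mouse 1 were placed in C6, with 151721 UMIs, and there *Lhfp* had 8 UMIs (52.7 CPM), *Bglap3* 7 (46.1 CPM), *Epb41l3* 5 (33.0 CPM), *Armcx2* 3 (19.8 CPM) and *Bex1* and *Chst1* 0, where 3 counts are 19.8 CPM. These few cells are not part of the comparison, and *Lhfp* and *Epb41l3* in them were not below the NP cells of C6.

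In differentiated hormone-sensing cells 5 of the 6 genes were higher in PI than in NP mice, again without overlap. Of the 11956 genes fitted there, 16.1% passed the test and 8.54% were higher and passed it, and as above nothing is read from this for the chosen genes. *Bglap3* stood at 2.37 and 1.79 CPM in C4 and at 122 and 163 CPM in C3, a log2 fold change of 6.06 ± 0.25. It was close to undetected in the differentiated cells of C4 in NP mice, at 30 and 26 UMIs in sums of 12667669 and 14508146 UMIs, and its level in C3 lay above that in the nulliparous progenitors of C6.

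*Epb41l3* stood at 1.34 and 1.31 CPM in C4 and 24.3 and 24.2 CPM in C3 (log2 fold change 4.13 ± 0.23). *Chst1* had 4 UMIs in each C4 sum, or 0.316 and 0.276 CPM, and 18.9 and 6.37 CPM in C3 (5.10 ± 0.58). The C3 values of *Chst1* lay apart in the PI mice, which also differed in the oestrous cycle, and its log2 fold change was 4.40 without PI mouse 1 and 5.82 without PI mouse 2. *Lhfp* stood at 8.60 and 4.48 CPM in C4 and 25.2 and 21.9 CPM in C3 (1.79 ± 0.24). It is highest in basal cells, as given below, and basal genes summed to 150 and 74.0 CPM in C4 and 21.3 and 29.3 CPM in C3. In the progenitors they summed to 129 and 68.8 CPM in C6 and 49.5 and 132 CPM in C7. The part of basal RNA in these *Lhfp* levels was not tested. *Bex1* stood at 18.9 and 13.6 CPM in C4 and 34.5 and 45.6 CPM in C3 (1.29 ± 0.20), the smallest of the 5 increases.

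*Armcx2* went the other way in these cells, where 7.54% of genes were lower and passed the test. Its level was 30.8 and 25.4 CPM in C4 and 19.2 and 18.5 CPM in C3, a log2 fold change of −0.63 ± 0.16, and the groups did not overlap. The list as named therefore holds for 5 genes, and *Armcx2* was lower after pregnancy in both lineages, with the larger fold in progenitors.

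**Figure D1:**
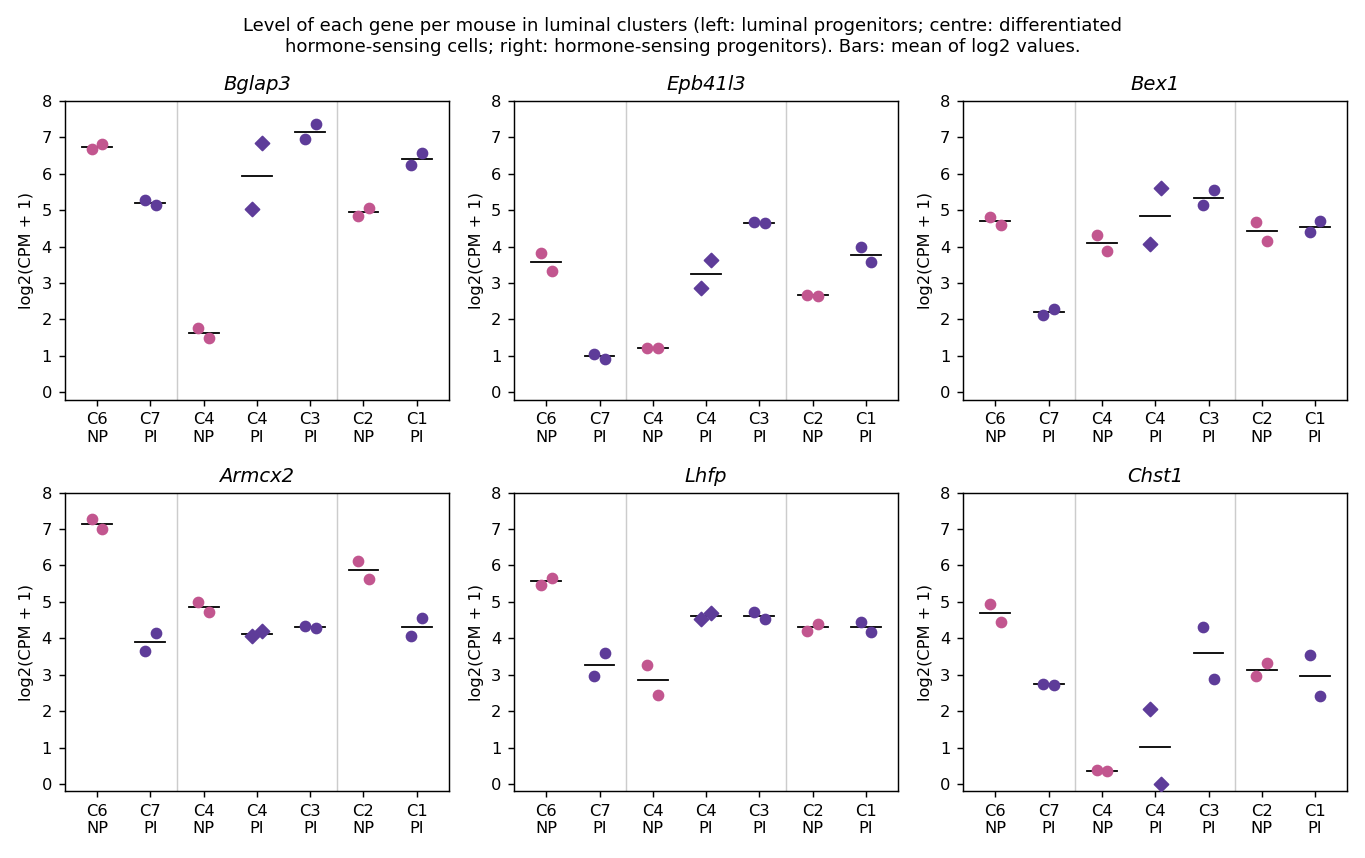
Level of each gene, as log2(CPM + 1), in luminal progenitors (C6, C7), differentiated hormone-sensing cells (C4, C3) and hormone-sensing progenitors (C2, C1). Points are single mice, pink for NP and purple for PI, diamonds are the few PI cells that the authors placed in C4, and bars are means of the log2 values of 2 mice (*Bglap3* stands near 2 CPM in C4 of NP mice and above 100 CPM in C3, and *Armcx2* is lower in PI in all 3 cell types).

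Across all genes the opposite pattern was uncommon. Among 10305 genes fitted in both contrasts, 70 (0.679%) were past the test as lower in progenitors and higher in hormone-sensing cells, and 59 (0.573%) were past it the other way round. Ordered by the smaller of their 2 changes, *Epb41l3* was rank 1 of the 70, *Chst1* 3, *Lhfp* 4, *Bglap3* 7 and *Bex1* 10. Since the genes were chosen on these contrasts, the ranks are a description. Among the 70 were also the relatives *Bex4* at rank 16, *Epb41l4a* at 25 and *Lhfpl2* at 43, named here after their values were seen.

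All 6 genes, *Armcx2* included, changed their order between the lineages. Each was higher in C6 than in C4 in both NP mice and lower in C7 than in C3 in both PI mice, as were 694 of the 10305 genes (6.73%). In NP mouse 1 and mouse 2 the progenitors had 42.4 and 62.2 times the *Bglap3* of hormone-sensing cells, and in PI mice the hormone-sensing cells had 3.21 and 4.79 times that of progenitors. For *Epb41l3* the progenitors led 9.89-fold and 6.97-fold in NP mice, and the hormone-sensing cells led 22.5-fold and 27.5-fold in PI mice. *Bex1* was nearly even before pregnancy, 1.44-fold and 1.70-fold higher in progenitors, and 10.2-fold and 11.7-fold higher in hormone-sensing cells after it. The exchange was narrow for *Armcx2* in PI mouse 2 (1.12-fold) and for *Chst1* in PI mouse 2 (1.13-fold), which are differences of less than 2 CPM.

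A few PI cells were placed by the authors in C4, the cluster made mostly of NP hormone-sensing cells. There were 40 and 88 such cells, with 316210 and 522176 UMIs. Their *Bglap3* was 31.6 and 113 CPM, beside 2.37 and 1.79 CPM in the NP cells of that cluster, and lay in 4 and 8 of the cells with up to 7 and 20 UMIs in a cell. *Lhfp* was 22.1 and 24.9 CPM (7 and 13 UMIs) and *Armcx2* 15.8 and 17.2 CPM (5 and 9 UMIs). Both were nearer to C3 than to the NP cells of C4 in both mice, but for *Armcx2* so few UMIs give no order on their own. *Epb41l3* was 6.32 and 11.5 CPM, on 2 and 6 UMIs, of which the first lies under the 9.49 CPM that 3 counts would give. *Bex1*, at 15.8 and 47.9 CPM, overlapped the NP cells, and *Chst1* rested on 1 UMI in mouse 1 and 0 in mouse 2.

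The same picture at the level of cells depends on depth, since C4 cells had medians of 10163 and 10309 UMIs and C3 cells 7179 and 5638. With all UMIs, *Bglap3* was found in 2.99% (95% interval 2.01–4.26) and 1.90% (1.21–2.83) of C4 cells of NP mice and in 16.0% (12.6–19.9) and 17.9% (16.4–19.5) of C3 cells. Intervals are exact binomial and cover counting error only. In cluster C17, where 5 immune genes summed to at least 33842 CPM, 0.389% of 514 cells had a *Bglap3* UMI at medians of 5256 to 6496 UMIs, and 0 of 514 had a *Bex1* UMI, which allows a share of up to 0.584%. The C17 sums come from G and L mice only, so they give no background for the NP and PI libraries. In C18, 0 of 24 and 0 of 56 cells of NP mice had a *Bglap3* UMI (intervals up to 14.2% and 6.38%). The same held for 0 of 38 C18 cells of PI mouse 2 (up to 9.25%). For *Epb41l3* and *Lhfp* the C17 shares were 7.39% and 20.0%, at levels of 6.70–41.0 and 33.5–126 CPM, so these genes have UMIs in C17 too. Basal genes summed to 1237–2741 CPM in C17 of G mice and 2696–9905 CPM in C17 of L mice. The part of basal RNA in these levels was not tested.

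*Bglap3* was concentrated in few cells, in C3 and in other clusters. The 5% of cells with most *Bglap3* held 68.1% and 58.6% of its UMIs in C3, with up to 26 and 33 UMIs in a cell, beside 41.1% and 49.4% in C6. They held 58.0% and 53.1% in C7, 56.0% and 59.3% in C8 and 70.4% and 62.2% in C11. C7 cells, with medians of 6483.5 and 5579 UMIs, had a UMI in 18.0% and 16.5%, while their summed level was 3.21 and 4.79 times lower than in C3. At an equal depth of 2000 UMIs the C7 shares lay below those of C3, as given next.

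After each cell was thinned to 2000 UMIs, 4 genes kept the exchange of order in the share of cells with a UMI: *Bglap3*, *Epb41l3*, *Armcx2* and *Lhfp*. *Bglap3* was then seen in 14.2% and 16.1% of C6 cells, 6.55% and 6.18% of C7, 0.515% and 0.330% of C4, and 11.7% and 13.2% of C3. *Epb41l3* was seen in 3.23% and 0.949% of C6, 0.243% and 0.272% of C7, 0.206% and 0.330% of C4, and 4.85% and 4.46% of C3. *Bex1* failed in NP mouse 1, where C6 had 2.69% and C4 3.50%, and *Chst1* failed in PI mouse 2, where C7 had 1.09% and C3 0.925%. Thinned shares of this size rest on few cells and give no order on their own.

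**Figure D2:**
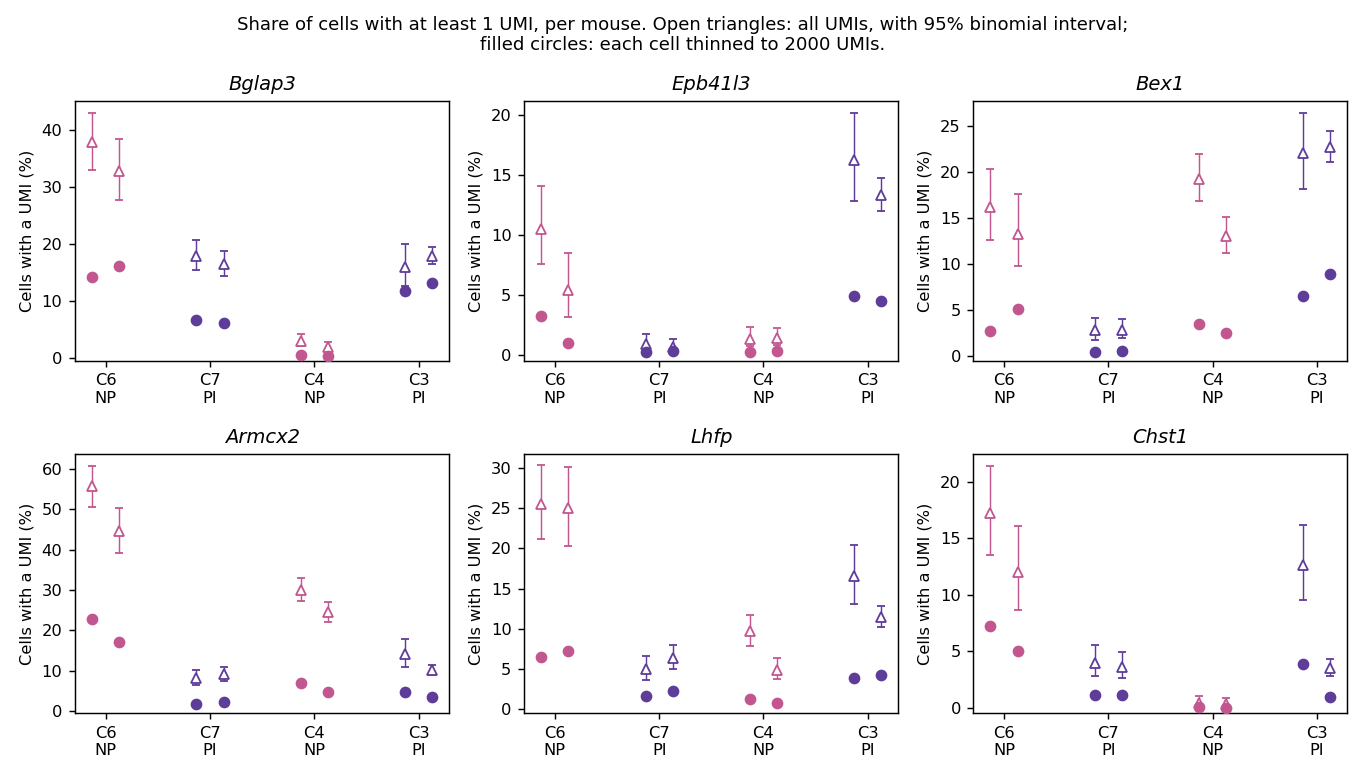
Share of cells with at least 1 UMI (%, y axis, scaled per gene) in C6 and C4 of NP mice (pink) and C7 and C3 of PI mice (purple), with 1 symbol pair per mouse. Open triangles use all UMIs, with exact 95% binomial intervals, and filled circles use 2000 UMIs per cell (for *Bglap3* the circles lie at 14.2% and 16.1% in C6 and at 11.7% and 13.2% in C3, and under 1% in C4).

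Hormone-sensing progenitors lay outside the contrasts that chose the genes, although they came from the same mice. Their PI cells formed C1 (107 and 385 cells) and their NP cells C2 (265 and 169 cells). Median UMIs per cell were 16314 and 11580 in C1 and 16399 and 16877 in C2, above those of C6, C7, C4 and C3. The progenitor genes summed to 508–836 CPM in C1 and 694–895 CPM in C2, and the hormone-sensing genes to 5634–6127 and 6440–7480 CPM. Each sum lay between those of the 2 other cell types at its stage. Whether C1 and C2 mix RNA of both was not tested. Independence from the contrasts that chose the genes is therefore not shown. Genes were tested with edgeR's quasi-likelihood test on the summed counts, with Benjamini-Hochberg adjustment over all genes at 0.05. Of the 6 genes, 2 were higher and 1 was lower in PI past the test, where 16.2% of 10677 genes passed it, 9.45% as higher and 6.8% as lower.

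*Bglap3* stood at 27.8 and 32.1 CPM in C2 and at 74.1 and 93.3 CPM in C1, a log2 fold change of 1.51 ± 0.17 (edgeR, adjusted p = 0.000136). *Epb41l3* stood at 5.41 and 5.20 CPM in C2 and at 14.8 and 10.9 CPM in C1 (1.21 ± 0.29, edgeR, adjusted p = 0.0145). Both rose, the same direction as in differentiated hormone-sensing cells, and the mice did not overlap. The call for *Epb41l3* was lost without NP mouse 1 (edgeR, adjusted p = 0.0882), without NP mouse 2 (0.0557) and with DESeq2 (0.109).

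*Armcx2* fell here too, from 68.2 and 48.8 CPM to 15.9 and 22.7 CPM (log2 fold change −1.54 ± 0.20, edgeR, adjusted p = 0.0004). The other genes did not pass the test. *Bex1* differed by 0.13 with a 95% interval of −0.28 to 0.55, *Lhfp* by −0.03 (−0.42 to 0.37) and *Chst1* by −0.27 (−1.04 to 0.51), so that for each of the 3 a change as large as that in C3 against C4 lay outside its interval. Milk protein genes summed to 197–336 CPM in C2 and 6822–7332 CPM in C1, and their part in these values was not tested.

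In the basal cells of C12 few PI cells were caught, 27 and 53, with 111570 and 283862 UMIs. Of the 4 genes that could be tested, 0 passed (7.49% of 8419 genes did, 4.51% as higher and 2.98% as lower), and 1 had an unadjusted p under 0.05 in both edgeR and DESeq2. That gene was *Armcx2*, at 47.5 and 36.6 CPM in NP and 8.96 and 17.6 CPM (1 and 5 UMIs) in PI mice (log2 fold change −1.51 ± 0.52, edgeR, adjusted p = 0.0843). *Lhfp* was 335 and 350 CPM in NP and 385 and 285 CPM in PI cells, with a log2 fold change of −0.11 and an interval of −0.50 to 0.28. *Bglap3*, which the filter on low counts left out, had 0 UMIs in PI mouse 1 and 56.4 CPM (16 UMIs) in PI mouse 2, and hormone-sensing genes in the same sums were at 1640 and 2822 CPM, with *Prlr* at 0 and 680 CPM. In the NP cells of C12 the hormone-sensing genes summed to 2804 and 2526 CPM, with *Prlr* at 198 and 221 CPM. With no filter on low counts *Bglap3* passed the test in C12, on the UMIs of PI mouse 2.

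Basal cells also allowed a look at gestation and lactation, in mice that did not choose the genes apart from the NP controls. C13 of G mice was compared with C12 of NP mice, and C14 of L mice with C13. The first comparison shares its NP sums with the C12 comparison above and the second shares its G sums with the first, so they are not independent.

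From NP to G, 3 genes rose and 1 fell past the test, beside 46.7% of 11074 genes, with 24.6% higher and 22.2% lower. *Chst1* rose from 10.8 and 7.32 CPM to 20.5 and 23.3 CPM (log2 fold change 1.30 ± 0.25, edgeR, adjusted p = 0.000437). *Armcx2* rose from 47.5 and 36.6 CPM to 69.0 and 64.5 CPM (0.73 ± 0.16, edgeR, adjusted p = 0.00114). *Epb41l3*, at 0.70 ± 0.26 (edgeR, adjusted p = 0.035), did not pass in 3 of the 4 fits that left out a mouse, nor with DESeq2 (adjusted p = 0.23). *Bglap3* fell from 4.23 and 4.57 CPM to 0.758 and 0.915 CPM (−2.24 ± 0.54, edgeR, adjusted p = 0.00283), a loss that rests on 7 UMIs in G, and neither DESeq2 nor the fit without NP mouse 1 called it (adjusted p = 0.0639 and 0.054).

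From G to L, 1 gene rose and 3 fell, beside 48.2% of 12707 genes, with 24.1% higher and 24.1% lower. *Bglap3* rose to 7.34 and 8.12 CPM (log2 fold change 3.29 ± 0.36, edgeR, adjusted p = 0.000255). *Bex1* fell from 3.79 and 2.75 CPM to 0.284 and 0.301 CPM (−3.32 ± 0.49, edgeR, adjusted p = 0.000985). *Chst1* fell from 20.5 and 23.3 CPM back to 7.15 and 8.97 CPM (−1.34 ± 0.20, edgeR, adjusted p = 0.00112), and *Armcx2* fell to 31.9 and 35.4 CPM (−0.88 ± 0.14, edgeR, adjusted p = 0.00127). Genes that respond to tissue dissociation summed to 4013–6651 CPM in C13 and 22303–27932 CPM in C14, and their part in these changes was not tested.

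*Lhfp* was the basal gene of the list. It lay between 285 and 425 CPM in every sum of the basal clusters C12 to C14 and did not pass the test from NP to G (0.24, interval 0.00 to 0.48) or from G to L (0.14, −0.11 to 0.39). In C15 of L mice, which the authors placed among basal cells, it was 324 and 245 CPM, but pericyte genes summed to 4819–5441 CPM there, beside at most 109 CPM in C12 to C14, and their part in this level was not tested. Among C1 to C15 the next in order was C5, the hormone-sensing cells of G mice, at 56.8 and 92.9 CPM, with no overlap. In C18, where fibroblast genes such as *Col1a1* and *Dcn* summed to 14015–53314 CPM, *Lhfp* was 116–156 CPM, and it was 135 and 142 CPM in C20, the cells set apart as doublets.

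In alveolar cells the steps from G to L were tested in differentiated cells (C9 against C8) and in alveolar progenitors (C11 against C10). Of the 6 genes 2 passed the test in differentiated cells, where 18.4% of 11858 genes did (9.26% higher, 9.16% lower), and 3 of the 4 tested passed in progenitors, where 28.9% of 8398 did (16% higher, 12.9% lower). Milk protein genes took 417202–447538 CPM of C9 and 57393–96653 CPM of C8, and all other genes share the rest. The median log2 change of CPM over all genes was −1.03 in C9 against C8, which the TMM scaling of edgeR brought to −0.16, and the log2 fold changes of both comparisons are on the TMM scale.

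*Bex1*, high in gestation, fell in lactation. It stood at 45.1 and 60.0 CPM in C8 and at 0 UMIs in both C9 sums, so that its CPM was at least 22.7-fold lower when 3 counts over the group (2.28 CPM) are allowed (edgeR, adjusted p = 0.000388). This bound is a ratio of CPM without the TMM scaling, so it includes the shift of all genes given above. In alveolar progenitors it fell from 99.5 and 73.6 CPM to 1.85 and 3.53 CPM (log2 fold change −4.70 ± 0.40, edgeR, adjusted p = 4.4e-05). Its highest level of all was in C5 of G mice, 105 and 151 CPM, in 20 and 41 cells.

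*Bglap3* rose in alveolar progenitors, from 25.2 and 16.8 CPM to 156 and 174 CPM (log2 fold change 3.29 ± 0.21, edgeR, adjusted p = 8.43e-06). C11 was its highest level, overlapping with C3 of PI mice. In differentiated alveolar cells it stood at 24.7 and 23.8 CPM in G and 22.7 and 14.8 CPM in L, lower in CPM, and on the TMM scale its change of 0.49 did not pass the test (interval −0.12 to 1.10).

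*Lhfp* rose in both alveolar comparisons. It went from 3.14 and 3.28 CPM in C8 to 34.9 and 8.09 CPM in C9 (log2 fold change 3.54 ± 0.55, edgeR, adjusted p = 0.00093), and from 6.89 and 21.8 CPM in C10 to 39.8 and 54.1 CPM in C11 (1.93 ± 0.41, edgeR, adjusted p = 0.00722). Leaving out a mouse moved these values to between 2.27 (without L mouse 1) and 4.27 (without L mouse 2) in C9, and between 1.36 (without G mouse 1) and 3.02 (without G mouse 2) in C11. Basal markers such as *Krt5* and *Krt14* summed to 132–139 CPM in C8 and 977–2166 CPM in C9, and to 171–230 CPM in C10 and 3614–5098 CPM in C11. *Lhfp* was highest in basal cells, as above, and the part of basal RNA in its rise was not tested. *Armcx2* was lower in both L groups, by 2.13 and 0.73 on the log2 scale, and passed in neither (edgeR, adjusted p = 0.0519 and 0.0986). It did pass with no filter on low counts in both (edgeR, adjusted p = 0.00841 and 0.0339), with the mouse number as a block in differentiated cells (0.0301), and in progenitors without L mouse 1 (0.0411) or G mouse 1 (0.0375). Without a mouse its change ran from −2.85 to −1.59 in differentiated cells and from −1.02 to −0.44 in progenitors.

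**Figure D3:**
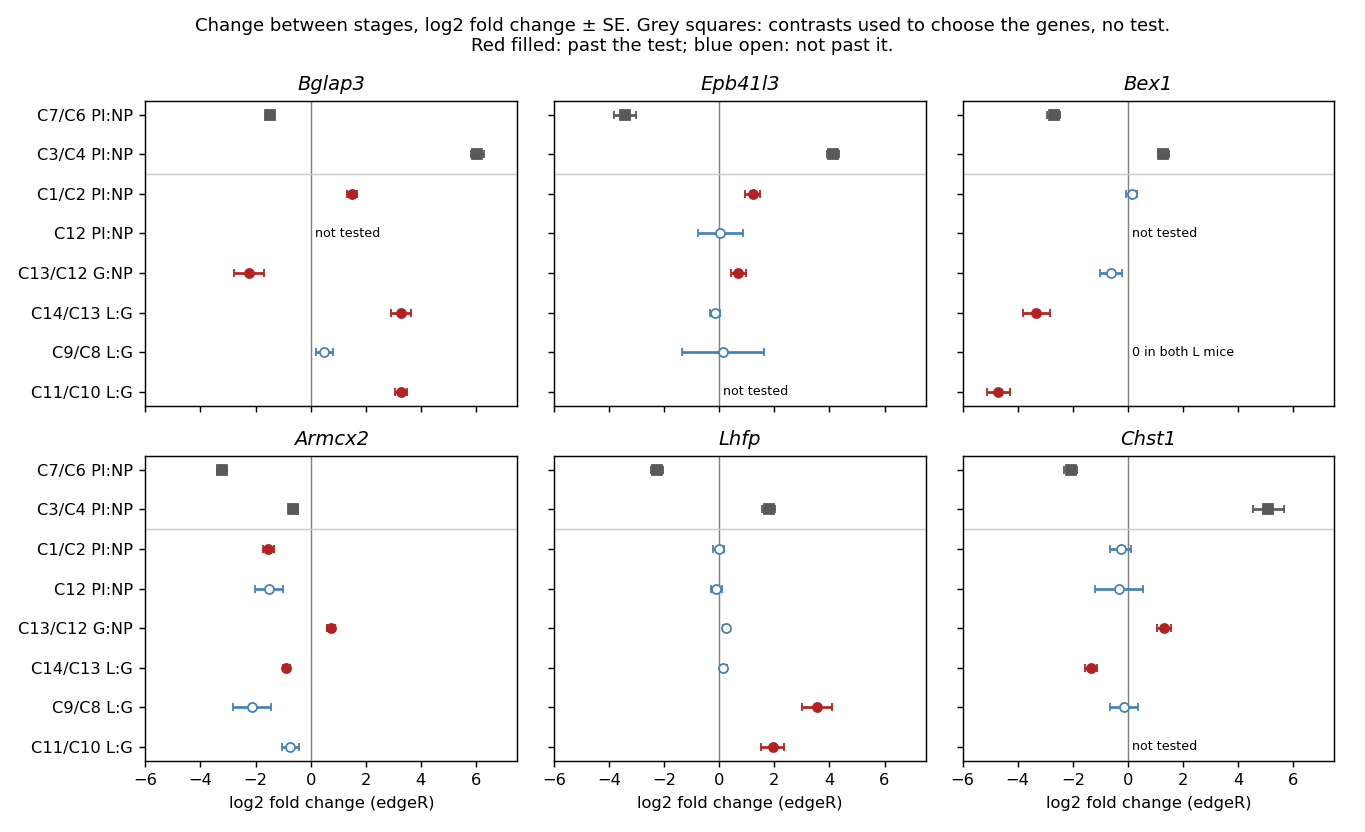
Log2 fold change with its SE (edgeR, 2 mice per group) of each gene in 8 comparisons, first group over second. Grey squares are the contrasts that chose the genes and carry no test, red filled circles passed an adjusted p of 0.05 and blue open circles did not (*Armcx2* lies left of 0 in all 4 PI against NP rows, and *Bglap3* crosses from −1.47 in progenitors to 6.06 in hormone-sensing cells).

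Over the clusters C1 to C15 with both mice, the genes had different leading cells. Ordered by mean CPM, *Bglap3* led in C11 (165 ± 12.5, SD, n = 2) and C3 (142 ± 28.8), which overlapped, followed by C6 and C1. *Epb41l3* led in C3 (24.2 ± 0.07) and C5 (21.8 ± 3.53, on 3 and 5 UMIs), which overlapped. *Bex1* led in C5, C10 and C8, all of G mice, of which C8 overlapped C3 of PI mice. *Armcx2* led in C6 (141 ± 20.2), above C13 (66.8 ± 3.18) with no overlap. *Chst1* led in C5 (43.7 ± 7.06, on 6 and 10 UMIs), after which the mice of C6, C13, C11 and C15 overlapped their neighbours in the order. *Bglap3* had 0 UMIs in C5 and C15, where 3 counts would be 4.66 to 24.3 CPM. Outside C1 to C15 *Epb41l3* was higher than in C3, at 29.0 CPM or more in every C18 sum, where fibroblast genes were high, and *Chst1* reached 16.1–37.1 CPM in C19.

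**Figure D4:**
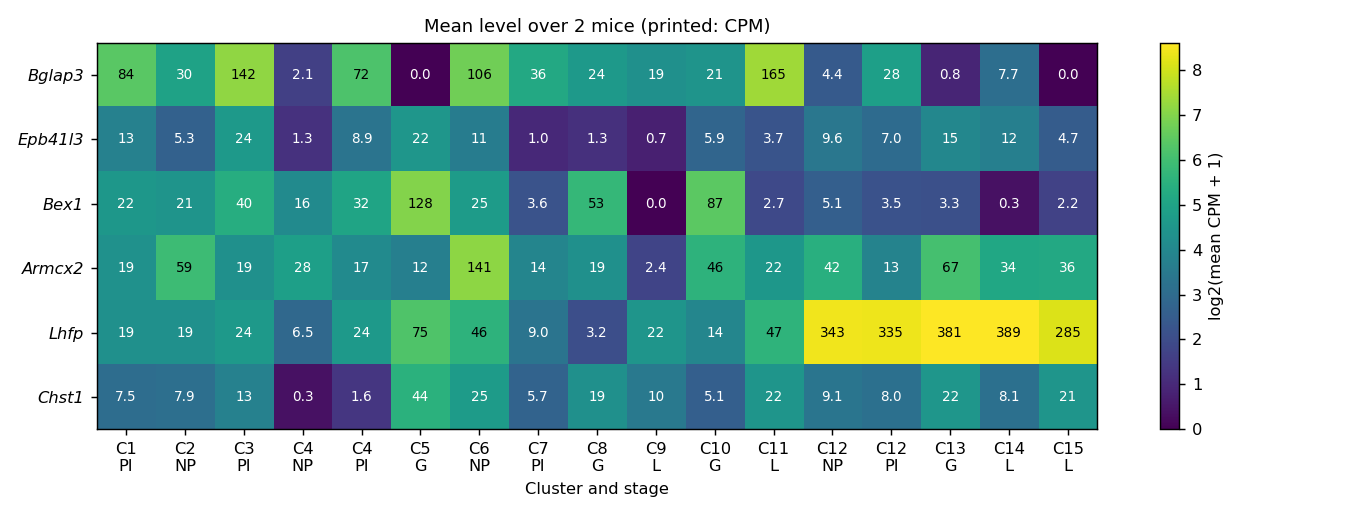
Mean level of each gene over 2 mice in each cluster and stage of C1 to C15 with both mice, coloured by log2(mean CPM + 1) and printed as CPM. Rows are genes and columns clusters (*Lhfp* is at 343, 381 and 389 CPM in the basal clusters C12 of NP mice, C13 and C14, and *Bex1* is highest in C5, C10 and C8 of G mice).

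Over all 35 sums of C1 to C15 with at least 20 cells, the genes of the list were weakly alike. Pearson r of log2(CPM + 1) lay between −0.48 for *Bex1* with *Lhfp* and 0.33 for *Lhfp* with *Chst1*. The 22 cells of PI mouse 1 in C6 are among these sums. The sums share libraries, so r is a description. Among 10924 genes the pattern most like *Bex1* was that of *Bex4* (r = 0.93), its neighbour on the X chromosome, then *Ola1* and *Eif3l*. Most like *Lhfp* were *Prr7* (0.90), *Hdgfrp3* and *Rnase4*, and most like *Bglap3* were *Mansc1* (0.85), *Capg* and *Arhgap27*. *Armcx2* was nearest to *Rnf19a* (0.80), *S100a3* and *Tead1*, *Epb41l3* to *Sh3bp1* (0.75), *Socs2* and *Fam149a*, and *Chst1* to *Zcchc17* (0.65), *Cachd1* and *Sepp1*.

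The BEX, ARMCX, TCEAL and GPRASP genes are related families of small or armadillo repeat proteins that sit close together on the X chromosome. Of 20 others in the matrix, 13 were tested in progenitors, where 3 were higher and 4 lower in PI, and 15 in hormone-sensing cells, where 4 passed, all of them higher in PI. Over all genes fitted, 14.2% were higher and 13.3% lower in progenitors, and 8.54% were higher in hormone-sensing cells, and nothing particular to the families is read from counts of this size. *Bex4*, a neighbour of *Bex1*, had means of 2 mice of 9.96 CPM in C6, 0.913 in C7, 6.24 in C4 and 13.8 in C3, without overlap between stages in either lineage, as *Bex1* did. *Tceal8*, which lies between *Bex4* and *Bex1*, and *Tceal9* (*Wbp5* in the files), beyond *Bex1*, were higher in C7 than in C6 (log2 fold change 0.75 each, past the test). On one side of *Armcx2* both neighbours were lower with it in PI progenitors: *Armcx6* from 15.1 and 15.3 CPM to 1.89 and 2.51 CPM (−2.68) and *Armcx3* from 29.9 and 36.1 CPM to 13.4 and 9.41 CPM (−1.44), past the test. On the other side *Zmat1* and *Nxf7* did not pass. Over all 331 X-linked genes tested there, the median log2 fold change was −0.02, with 45 higher and 39 lower, beside 27.5% of all genes past the test in either direction.

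In the families of the other genes few members passed in both contrasts. Of 5 tested osteocalcin and vitamin K cycle genes, *Mgp*, the matrix Gla protein that inhibits calcification, fell in hormone-sensing cells from 102 and 116 CPM to 22.8 and 24.7 CPM (log2 fold change −2.24), opposite to *Bglap3*. *Vkorc1*, which recycles vitamin K, and *Nqo1* rose in progenitors by 0.65 and 1.20. Of 8 tested band 4.1 genes and partners, 3 fell in progenitors and 1, *Epb41l4a*, rose in hormone-sensing cells, where over all genes 13.3% fell in the former and 8.54% rose in the latter. Of the LHFP family *Lhfpl2* alone passed the filter in these contrasts, at −0.68 in progenitors and 1.45 in hormone-sensing cells, the latter at 5.10 and 3.35 CPM. Of 3 tested sulfotransferases, *Chst12* was lower in hormone-sensing cells (−1.45).

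Of the genes next to the other members on their chromosomes, some passed in progenitors and *Slc35c1* in differentiated hormone-sensing cells. On either side of *Bglap3*, *Paqr6* and *Pmf1* were higher in PI progenitors (log2 fold change 1.01 and 0.84, past the test), and *Smg5* and *Slc25a44* did not pass. Next to *Epb41l3*, *Zbtb14* was lower in PI progenitors (−1.72) and did not pass in hormone-sensing cells (−0.56). Next to *Chst1*, *Trp53i11* was lower in PI progenitors (−1.05), and next to *Lhfp*, *Foxo1* was higher (0.43). *Slc35c1*, also next to *Chst1*, was lower in PI differentiated hormone-sensing cells (−0.58, past the test), where *Chst1* was higher. The counting of *Bglap3* carries a doubt of its own: 41.5% of the 31-base words in the last 300 bases of its longest transcript also occur in *Bglap* or *Bglap2*, so reads could be lost or shared, and those genes had 15 and 11 UMIs where *Bglap3* had 7097.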

How the data were processed

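The authors counted UMIs per gene and cell barcode with Cell Ranger from reads aligned to mm10 (the submitters' processing notes also name STAR), and the deposited values are raw counts per library without normalisation. The annotation deposited by the authors gave each cell's library, cluster, mitochondrial fraction and quality flags. Of 25806 barcodes 25009 passed and matched the matrices. Removed by the authors were shallow cells, cells rich in mitochondrial UMIs and the 392 barcode sequences that occurred in more than 1 library, and they set cluster C20 apart as doublets. No further doublet caller was run.

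Counts were summed per library and cluster where at least 20 cells were present, since cells are not replicates. Each comparison was fitted to the sums of its 2 groups with edgeR 4.0.16 in R 4.3.3 (filterByExpr, TMM, quasi-likelihood test, Benjamini-Hochberg adjustment over all genes, threshold 0.05). An exact permutation test of 2 mice against 2 could not go below p = 0.333. Intervals of log2 fold changes are the value ± 1.96 SE. The 6 genes, the gene lists and the tests were chosen with earlier results of these data known. Named besides the 6 were the 3 most alike genes of each, 2 annotated neighbours on either side, and at most 4 genes of each family list. All 6 matched the GRCm38 annotation and the RefSeq promoter table.

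In data simulated from each comparison's means and depths, no gene was called with the wrong sign. Every simulated gene had the same dispersion, and few genes were changed, drawn only from those above a minimum count. The shares below hold for that setting and need not carry over to the real data. The share of 4-fold changes recovered ran from 49.5% in C12 of PI against NP to 94.1% in hormone-sensing progenitors, and that of 2-fold changes from 7.7% in differentiated alveolar cells to 23.1% in luminal progenitors. Unchanged genes made up to 6.6% of the calls, in differentiated alveolar cells. Alternatives were DESeq2 1.42.0, no filter, the mouse number as a block, a minimum fold (glmTreat), sums thinned to equal depth, leaving out each mouse, cell means in place of sums, and 1000 UMIs per cell.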

Additional observations from a re-analysis of the deposited data

Results flagged for a closer look

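Every value here is a difference between 2 log2 fold changes of PI against NP. It was listed because both PI mice lay on one side of the NP mice in the first cell type and on the other side in the second. The difference itself was not tested, and for the comparison of differentiated hormone-sensing cells with luminal progenitors the genes were chosen for it.

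The change in differentiated hormone-sensing cells exceeded that in luminal progenitors by 7.53 for *Bglap3*, 7.55 for *Epb41l3* and 7.19 for *Chst1* on the log2 scale. It did so by 4.06 for *Lhfp* and 3.99 for *Bex1*. In hormone-sensing progenitors, which the choice did not use, the change exceeded that in luminal progenitors by 2.98 for *Bglap3* and 4.63 for *Epb41l3*, although the luminal progenitor side is the contrast that chose them. Whether the hormone-sensing progenitor clusters mix RNA of both lineages was not tested.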

How the results depend on the processing

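The log2 fold changes of the 6 genes in the luminal contrasts kept their sign under every alternative run there, and all 6 still exchanged order with cell means in place of sums. Shares of cells did so for 4 of 6 genes at 2000 and at 1000 UMIs per cell, but not for the same 4.

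Counts of genes past the test depended on the tool and on single mice, and the cause was not tested. In the order luminal progenitors, differentiated hormone-sensing cells, hormone-sensing progenitors, C12 of PI against NP, basal G against NP and alveolar progenitors, DESeq2 called 1615, 1252, 807, 418, 3123 and 1211 genes, where edgeR called 2955, 1923, 1735, 631, 5177 and 2424. With a minimum fold in the test the same comparisons gave 252, 143, 127, 42, 627 and 390 genes, with 743 in basal L against G (6130 without it) and 325 in differentiated alveolar cells (2184 without it). Of the 16 calls for the 6 genes outside the contrasts that chose them, 10 did not pass with the minimum fold. Those that passed were *Bex1* in basal L against G and both alveolar comparisons, *Bglap3* in basal L against G and alveolar progenitors, and *Lhfp* in differentiated alveolar cells. *Epb41l3* in hormone-sensing progenitors also lost its call with thinned sums (edgeR, adjusted p = 0.197). Thinned sums gave 127 in C12 and 1231 in differentiated alveolar cells. Thinning left too few counts to fit any of the 6 genes but *Lhfp* in C12, any but *Bex1* and *Bglap3* in differentiated alveolar cells, and *Bglap3* in basal G against NP. Leaving out a mouse gave 1727 to 2574 in luminal progenitors, 866 to 2857 in differentiated hormone-sensing cells, 825 to 1852 in hormone-sensing progenitors, 185 to 913 in C12, 3225 to 5074 in basal G against NP, 4447 to 5477 in basal L against G, 911 to 1890 in differentiated alveolar cells and 1779 to 2616 in alveolar progenitors. Where this left 1 mouse in a group, that mouse was assumed to vary like the others.

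Signs turned only for changes that had not passed the test. In hormone-sensing progenitors *Chst1* was 0.17 with thinned sums, and without a mouse ranged from −0.79 to 0.44, *Bex1* from −0.094 to 0.42 and *Lhfp* from −0.17 to 0.13. In C12 *Epb41l3* was −0.038 with DESeq2, −0.093 with no filter and −7.42 to 0.51 without a mouse (the lowest without PI mouse 2, which leaves 0 UMIs in PI), and *Lhfp* −0.295 to 0.046. In differentiated alveolar cells *Epb41l3* ranged from −7.39 to 1.00 and *Chst1* from −1.86 to 0.73. *Armcx2* passed with no filter in both alveolar comparisons (edgeR, adjusted p = 0.00841 in differentiated cells and 0.0339 in progenitors), and *Bglap3* with thinned sums in differentiated cells (1.60, adjusted p = 0.0141).

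The mouse numbers share only a number: deviations of same-numbered mice correlated between −0.05 and 0.07. With the replicate block, 3146, 1889, 1647, 508, 5332, 6102, 2214 and 2638 genes passed, basal and alveolar comparisons last. *Epb41l3* in C12 was −0.018 under the block, and *Armcx2* passed in differentiated alveolar cells (edgeR, adjusted p = 0.0301).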
